A study of Mus musculus with 34 samples.

Results

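The genes described here are the solute carriers, ion pumps and ion channels that the arrays measured in mouse liver. They were chosen by a rule on the symbol that uses no measured value, though it was set with earlier results of these data known: every gene whose symbol begins with Slc or Slco and a digit, Aqp, Atp1a, Atp1b, Atp2, Atp6, Atp7, Kcn, Scn, Cacn or Clcn. The mitochondrial Slc25 carriers, Slc27a2, Slc27a5 and Slc11a1 were set aside. This gave 29 genes on 31 spots, out of 1019 named genes and 1856 features (named genes plus unnamed spots). No named gene used began with Atp1a, Atp7, Kcn, Scn or Cacn.

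Hepatocytes take up bile salts, sugars, amino acids, nucleosides and drugs from the blood through solute carriers of their sinusoidal membrane, while water channels and anion transport at the canalicular membrane help to form bile. Ion pumps spend ATP to hold the gradients that many of these carriers use: the sodium-potassium pump for sodium, the calcium pumps for cytosolic calcium and the vesicle proton pump for the acidity of endosomes and lysosomes. Chloride channels and exchangers balance the charge that moves with these ions.

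Liver RNA of 13 mice was hybridised on 34 two-colour arrays against a universal mouse reference RNA, with the mouse RNA in Cy5 on 21 arrays and in Cy3 on 13. The thermoneutral group (TN) held 7 mice on 20 arrays, which ate endophyte-free fescue. The group under chronic heat stress (HS) held 6 mice on 14 arrays, exposed for 2 weeks. Of these 14 arrays, 8 are labelled with 34 °C, 7 with a start age of 27 days and 5 with an end age of 40 days. A few labels name the ICR strain and a sex. The sources used here do not give what HS mice ate, how old TN mice were or how hybridisations were batched, so heat and any such difference cannot be told apart.

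A level in this text is the log2 ratio of liver over reference for 1 mouse, where 0 is the median spot of the array. A gene was called above or below when its mean over both groups differed from 0 at an adjusted p under 0.05 (limma, Benjamini-Hochberg over all 1856 features). A level says how liver compares with the reference RNA for 1 probe, and the order of levels is no order of abundance. The probes were designed on rat sequence, and how well each reads mouse RNA was not tested. Fewer cells of a type and less RNA per cell cannot be told apart in whole liver.

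Of 20 measured hepatocyte markers 16 were above and 0 below, with a median of 2.25 and albumin (Alb) at 4.96. Of 3 Kupffer cell and macrophage markers 0 were above and 2 below, the mesenchymal marker Vim stood at −4.03 and the globin Hba-a1 at 1.24. Tnnt2 of muscle stood at −0.92 and Prss1 of pancreas at 0.35, while no marker listed for bile duct, endothelium, kidney tubule or neuron was measured. The Cy5 array of the TN mouse M244 and the Cy3 array of the HS mouse F241 stood apart by their spread, with median absolute deviations of 2.45 and 1.90 against a median of 0.97 over arrays. Mouse F203 (HS) had 1 array, with its RNA in Cy3, so every result on the Cy5 arrays alone leaves this mouse out.

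Of the 29 genes, 13 were above the array median, 6 were below and 10 were not called. Over all features 24.1% were above and 24.4% below. The 13 were led by the glutamine carrier Slc38a3 and the water channel Aqp8, followed by the glucose carrier Slc2a2, the bile salt carriers Slc10a1 and Slco1b2, the chloride channel Clcn2, Slc16a7, Slc29a1, Slc6a13, Slc37a4, Slco2b1, Slc5a6 and Slc33a1. The 6 below were Slco1a4, Atp6v0c, Atp2b1, Slc4a2, Atp2a2 and Slc27a1. The median level was 0.33 over the 29 genes and −0.03 over all features. Without the pair of arrays that stood apart 12 genes were above, with Slc5a6 lost at 0.27, and 7 below, with Clcn4 added at −0.41. With no centring 12 were above and 2 below. With centring on the named spots, scaling to one spread or quantile normalization 13 were above and 8 below, with Clcn4 and Slc22a2 added.

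**Figure D1:**
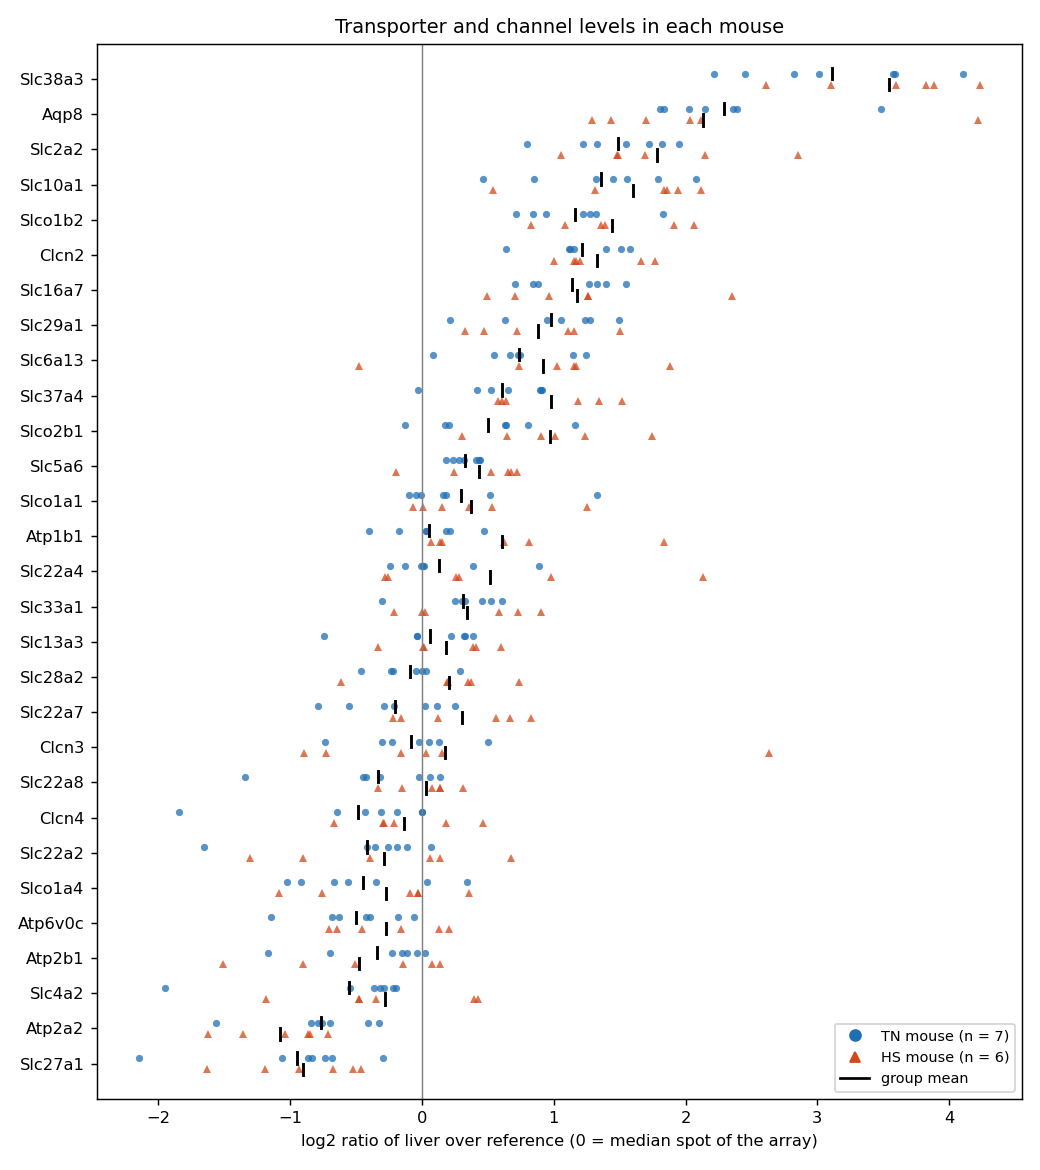
Level of each transporter or channel gene in each mouse, on the x axis as the log2 ratio of liver over reference with 0 at the median spot, genes ordered by mean level. Circles are the 7 TN mice, triangles the 6 HS mice and bars the group means. Slc38a3 lies above 2 in all 13 mice, Atp2a2 and Slc27a1 lie below 0 in all 13, and TN and HS mice overlap in each gene.

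Both amino acid carriers were above. Slc38a3 exchanges glutamine and histidine together with sodium for protons across the hepatocyte membrane. Its level ran from 2.21 to 4.10 in the TN mice (median 3.01) and from 2.61 to 4.24 in the HS mice (median 3.71). The groups overlapped over most of their range. The mean of 3.33 (95% interval 2.98 to 3.67, adjusted p = 5.12e-14) exceeded the SD between mice of 0.65, and the ratio was above 0 on 34 of 34 arrays. Slc6a13, a carrier of GABA and taurine, averaged 0.83 (0.50 to 1.16), with 12 of 13 mice above 0. The exception was the HS mouse F222 at −0.47. On the Cy5 arrays alone the mean of Slc6a13 was 0.39 and not called (adjusted p = 0.152).

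The 1 aquaporin among the named genes was above too. Aqp8 passes water, and in the hepatocyte it is found in canalicular and intracellular membranes. It ran from 1.80 to 3.49 in TN (median 2.15) and from 1.29 to 4.22 in HS (median 1.86), with a mean of 2.21 (1.81 to 2.62). A single mouse of each group stood high, F223 in TN and F203 in HS, and the other mice lay between 1.29 and 2.39.

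All 3 genes of the sugar carrier families were above, although Slc5a6 among them carries vitamins. Slc2a2, the sinusoidal glucose carrier GLUT2, ran from 0.80 to 1.95 in TN (median 1.54) and from 1.05 to 2.86 in HS (median 1.59). Its mean was 1.64 (1.33 to 1.94), and every mouse was above 0. Slc37a4, which brings glucose 6-phosphate into the endoplasmic reticulum for glucose release, averaged 0.79 (0.52 to 1.07), with 12 of 13 mice above 0 and M244 at −0.03. Slc5a6, the sodium-dependent carrier of biotin and pantothenate, averaged 0.38 (0.13 to 0.63). It lost its call on the Cy3 arrays alone (0.26) and without the pair of arrays that stood apart (0.27).

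The bile acid, organic anion and organic cation carriers were divided: 3 of 9 were above, 1 was below and 5 were not called. Slc10a1 (NTCP) takes conjugated bile salts up with sodium. It ran from 0.46 to 2.08 in TN (median 1.45) and from 0.54 to 2.11 in HS (median 1.84), with a mean of 1.48 (1.16 to 1.80) and every mouse above 0. Slco1b2 takes up bile salts, bilirubin conjugates and drugs without sodium. It ran from 0.71 to 1.83 in TN (median 1.22) and from 0.83 to 2.06 in HS (median 1.38), with a mean of 1.30 (1.02 to 1.58). Slco2b1, a carrier of steroid sulfates, averaged 0.74 (0.44 to 1.03) with 12 of 13 mice above 0. In all 3 genes the HS mice overlapped the TN mice.

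The 6 remaining members of this group lay near the array median. Slco1a1, an uptake carrier of bile salts and steroid conjugates, averaged 0.33 (adjusted p = 0.0648) and passed the test when M244 or M256 was left out (0.35 and 0.38). Slc22a4, the ergothioneine carrier, averaged 0.33 (adjusted p = 0.131), but 0.66 on the Cy5 arrays and −0.14 on the Cy3 arrays. The organic anion carrier Slc22a7 (OAT2) stood at 0.05. Slc22a8 (OAT3) and Slc22a2 (OCT2), best known from the kidney tubule, stood at −0.15 and −0.35. Slc22a2 was not called (adjusted p = 0.0899), but was called below in 7 of 24 other settings, among them the Cy5 arrays alone (−0.67) and without F203 (−0.45). Slco1a4, which takes up cardiac glycosides, was just inside the threshold at −0.36 (adjusted p = 0.0495). Its call was lost when any of 10 of the 13 mice was left out, at −0.28 to −0.38, and it was called in 11 of 24 other settings.

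Slco1b2, Slco1a4 and Slco1a1 are neighbours in the RefSeq table, with 1 protein-coding gene between Slco1b2 and Slco1a4 and 0 between Slco1a4 and Slco1a1. Of these neighbours Slco1b2 was above, Slco1a4 was at the threshold and Slco1a1 was not called. Their sequences are similar, and whether their probes shared signal was not tested.

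Of the 4 carriers of nucleosides, acetyl-CoA and fatty acids, 2 were above, 1 below and 1 not called. Slc29a1 (ENT1), which lets nucleosides equilibrate across the membrane, ran from 0.21 to 1.49 in TN (median 1.05) and from 0.33 to 1.50 in HS (median 0.92), with a mean of 0.93 (0.64 to 1.22). Slc28a2, which concentrates purine nucleosides with sodium, stood at 0.06 and was not called. Slc33a1, the acetyl-CoA carrier of the endoplasmic reticulum, was just inside the threshold at 0.32 (adjusted p = 0.0463). Leaving out any of 9 of the 13 mice ended that call, at 0.26 to 0.33, and it held in 11 of 24 other settings, among them without M244, F222, F203 or M256. Slc27a1 (FATP1) is a fatty acid carrier best known from muscle and fat. It ran from −2.15 to −0.29 in TN (median −0.83) and from −1.63 to −0.46 in HS (median −0.80), with a mean of −0.92 (−1.23 to −0.61). No mouse was above 0, and 1 of 34 arrays was.

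Slc16a7 (MCT2), a carrier of lactate, pyruvate and ketone bodies, ran from 0.71 to 1.54 in TN (median 1.27) and from 0.50 to 2.35 in HS (median 1.11). Its mean was 1.16 (0.85 to 1.46), with 34 of 34 arrays above 0. Slc13a3, a sodium-coupled carrier of dicarboxylates, stood at 0.12 and was not called, but was called above on the Cy5 arrays alone (0.61) and below on the Cy3 arrays alone (−0.42).

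Of the 3 chloride channels and exchangers, Clcn2 was above and Clcn3 and Clcn4 were not called. Clcn2, a channel of the plasma membrane, ran from 0.64 to 1.58 in TN (median 1.15) and from 1.00 to 1.77 in HS (median 1.19), with a mean of 1.27 (1.01 to 1.53). Clcn3 and Clcn4, chloride-proton exchangers of endosomes, stood at 0.04 and −0.31. For Clcn3 F203 was at 2.64, the other HS mice reached 0.15 at most, and without F203 the mean was −0.20. On the Cy5 arrays alone, which also lack F203, Clcn3 was called below (−0.77). Clcn4 was not called (adjusted p = 0.101), but was called below in 6 of 24 other settings, among them the Cy3 arrays alone (−0.65) and without F241 (−0.39).

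Clcn2 and Slco1b2 were each read by a pair of spots, and the spots of a gene differed in level. Clcn2 spot 1469 averaged 2.50, ran from 1.57 to 3.14 over the 13 mice and was above 0 on 34 of 34 arrays. Clcn2 spot 1589, listed for the same transcript, averaged 0.05, ran from −0.56 to 0.73 and was above 0 on 13 of 34. The call of Clcn2 as above therefore rests on spot 1469, since spot 1589 on its own was not called (adjusted p = 0.839). Slco1b2 spot 1602 averaged 2.14 and was above 0 on 33 of the 33 arrays with a value. Slco1b2 spot 757, listed for another transcript, averaged 0.43 and was above 0 on 20 of 34. Each Slco1b2 spot was called on its own. The Cy3 array of F241 had no value for spot 1602, so that spot 757 alone stood for Slco1b2 there.

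**Figure D2:**
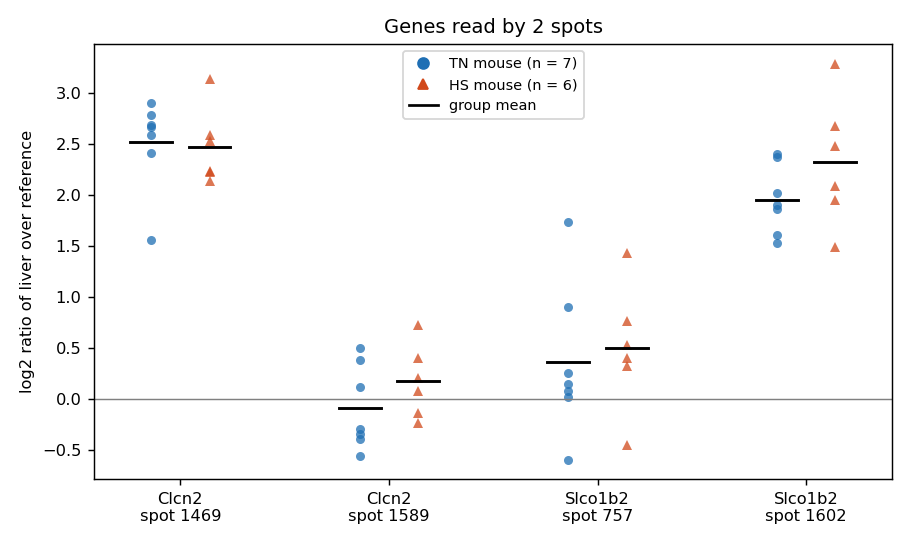
Level of each spot of Clcn2 and Slco1b2 on the y axis, as the log2 ratio of liver over reference, for the 7 TN mice (circles) and 6 HS mice (triangles), with bars at the group means. The lowest mouse is at 1.57 on Clcn2 spot 1469 and the highest at 0.73 on spot 1589, and the Slco1b2 spots average 2.14 and 0.43.

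Among the ion pumps and the anion exchanger 4 genes were below and 1 was not called. Atp2a2 (SERCA2), which pumps calcium into the endoplasmic reticulum, ran from −1.56 to −0.32 in TN (median −0.75) and from −1.62 to −0.71 in HS (median −0.95). Its mean was −0.92 (−1.19 to −0.65), and 0 of 13 mice and 1 of 34 arrays were above 0. Atp2b1 (PMCA1), which pumps calcium out of the cell, ran from −1.16 to 0.02 in TN (median −0.15) and from −1.50 to 0.13 in HS (median −0.32), with a mean of −0.41 (−0.72 to −0.09). Its call was lost on the Cy3 arrays alone (−0.31), with no centring (−0.325), and when F235, F241 or M256 was left out (−0.38, −0.36 and −0.30).

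Slc4a2 (AE2) exchanges chloride for bicarbonate. It ran from −1.94 to −0.20 in TN (median −0.31) and from −1.18 to 0.43 in HS (median −0.41), with a mean of −0.41 (−0.75 to −0.08). The lowest mouse was M244, and the call of Slc4a2 was lost when any of 6 of the 13 mice (M243, M244, M233, F222, F203 or M256) was left out, at −0.29 to −0.41. That call was also lost with no centring (−0.333), with a plain mean of the arrays (−0.284) and without F203 and M244 together (−0.272). Atp6v0c, the membrane ring subunit of the vesicle proton pump, averaged −0.39 (−0.66 to −0.11), with 2 of 13 mice above 0. Its call was lost without F222 (−0.34), with no centring (−0.305) and on the Cy5 arrays alone (0.010). Atp1b1, the beta subunit that the sodium-potassium pump needs to reach the membrane, averaged 0.33 and was not called (adjusted p = 0.0706). It was called above without M244, F222 or M256, at 0.35 to 0.38, and on the Cy3 arrays alone (0.89), and below on the Cy5 arrays alone (−0.43, adjusted p = 0.0259).

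Levels differed with the dye, both near 0 and further away, though not in every gene. Atp2a2 averaged −1.38 with liver RNA in Cy5 and −0.49 with it in Cy3, and Slc38a3 3.35 and 3.41. All 13 genes called above had a mean above 0 on the arrays of either dye, while 3 of the 6 called below changed sign. Slc4a2 averaged 0.55 where liver RNA was in Cy5, called above, and −1.40 where it was in Cy3. Slco1a4 averaged 0.01 and −0.89, and Atp6v0c 0.01 and −0.83. Of the 10 genes not called, 3 had the same sign in both dyes. The share of all features with the same sign in both dyes was not computed. Atp1b1 was above 0 on all 13 Cy3 arrays but on 4 of 21 Cy5 arrays, and its means were 0.89 and −0.43. The fitted dye term had a median size of 0.30 over the 29 genes and 0.19 over all features. In each of 24 other ways of treating the arrays and mice, 10 genes stayed above (Slc38a3, Aqp8, Slc2a2, Slc10a1, Slco1b2, Clcn2, Slc16a7, Slc29a1, Slc37a4 and Slco2b1) and 2 stayed below (Atp2a2 and Slc27a1). The share of all features that did so was not computed. Single spots are not among the 24 ways, and Clcn2 spot 1589 on its own was not called.

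**Figure D3:**
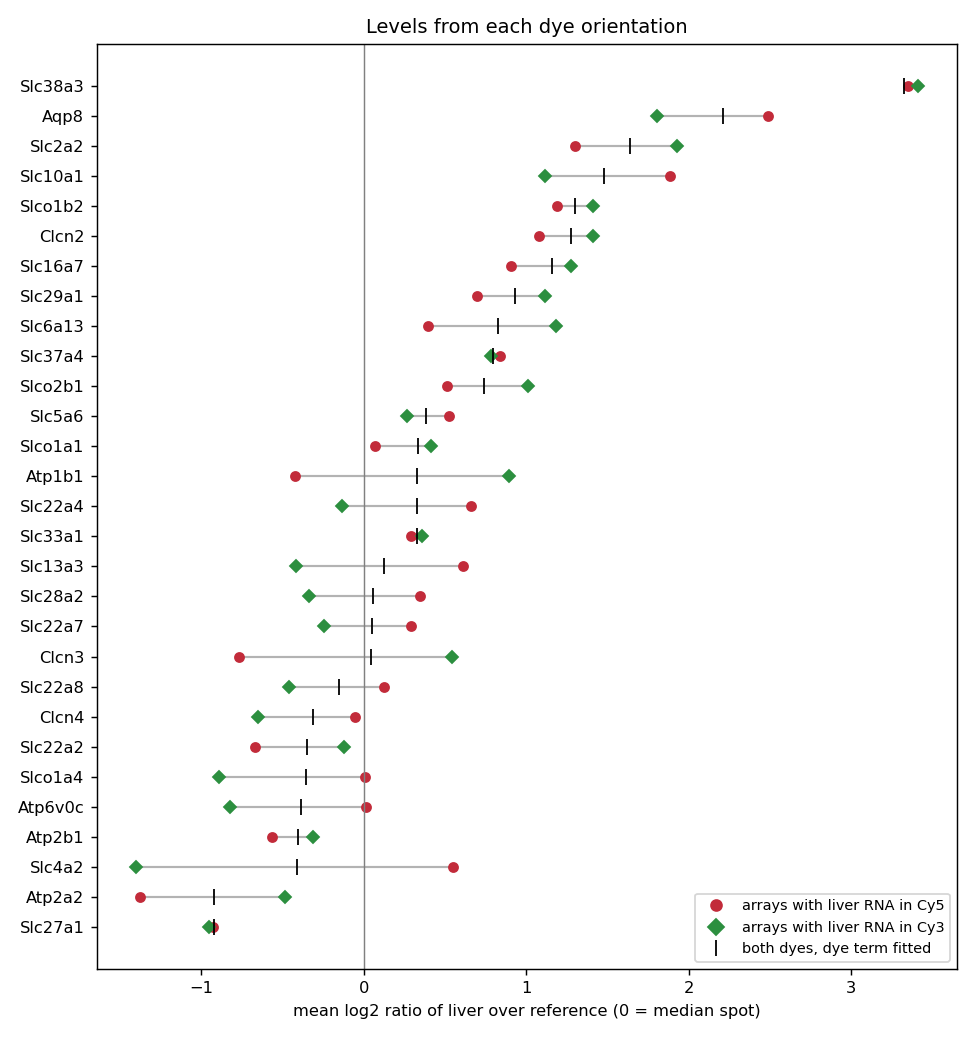
Mean level of each gene on the x axis (log2 ratio of liver over reference) from arrays with liver RNA in Cy5 (circles), from arrays with it in Cy3 (diamonds) and from both with a dye term (bars). Slc27a1 is at −0.93 in Cy5 and −0.95 in Cy3, and Slc4a2 runs from −1.40 in Cy3 to 0.55 in Cy5.

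Promoter entries were found for 25 of the 29 genes in the RefSeq table for GRCm38.p6, each holding 250 bases before and 50 after a start. The 100 bases before the start are shown for the 4 genes of highest level that have an entry, as the regulatory sequence of genes high in liver over reference: Aqp8 (chr7:123462194-123462293, plus strand), Slc2a2 (chr3:28697803-28697902, plus strand), Slc10a1 (chr12:80968706-80968805, minus strand, the first of 2 entries) and Slco1b2 (chr6:141629418-141629517, plus strand). Capitals mark the letters GTTAAT, the core of sites for the hepatocyte factor HNF1, and AGGTCA, the core of sites for many nuclear receptors, on either strand.
Aqp8: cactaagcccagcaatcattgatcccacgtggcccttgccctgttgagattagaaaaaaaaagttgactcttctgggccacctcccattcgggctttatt
Slc2a2: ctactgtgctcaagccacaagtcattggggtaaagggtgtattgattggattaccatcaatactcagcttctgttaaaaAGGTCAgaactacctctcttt
Slc10a1: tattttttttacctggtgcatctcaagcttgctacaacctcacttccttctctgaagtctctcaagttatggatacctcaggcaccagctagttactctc
Slco1b2: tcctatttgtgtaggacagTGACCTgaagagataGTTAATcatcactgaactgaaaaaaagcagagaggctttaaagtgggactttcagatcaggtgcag
Slc2a2 held AGGTCA beginning 21 bases before the start, and Slco1b2 held its reverse complement TGACCT at 81 and GTTAAT at 66. The 100 bases of Aqp8 and Slc10a1 held neither. Over whole windows of 300 bases, AGGTCA was found in 7 of 26 entries of the genes above (26.9%), in 1 of 11 of the genes below (9.09%), in 1 of 11 of the genes not called and in 16.3% of all 32851 entries. GTTAAT was found in 2 of 26 entries of the genes above (7.69%), in 0 of 11 of the genes below, in 2 of 11 of the genes not called (18.2%) and in 7.1% of all. Entries of a gene can overlap, so they are not independent, and a match of letters is not a binding site.

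No transporter or channel passed the test for a difference between HS and TN. Of the 29 genes 0 passed, as did 0% of all features (limma, lowest adjusted p 0.999). At an unadjusted p under 0.05 there were 0 of 29, where 2.42% of all features passed. The interval excluded a 2-fold difference for 23 of the 29 genes and for 75.2% of features. In a simulation of HS against TN with 1846 features, 200 were changed, by 1.41- to 4.00-fold. The test recovered 10% of the 1.41-fold and 52% of the 2.00-fold changes, so differences of such size were often missed there. The simulation drew the spread of each feature independently and gave the arrays of a mouse the same value. Shifts of a mouse over many genes and outlying arrays were not simulated. Recovery with fewer changed features, where the adjustment is stricter, was not tested.

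The HS mean exceeded the TN mean for 25 of the 29 genes, for 48.3% of all features and for 58.9% of named genes. The difference, HS minus TN, had a median of 0.23 over the 29 genes, −0.01 over all features and 0.06 over named genes. It was above 0 in all 9 bile acid, organic anion and cation carriers, from 0.08 to 0.51, although 6 of the 9 turned sign in at least 1 of 26 other settings (Slc10a1, Slco1b2, Slco1a1, Slc22a4, Slc22a2 and Slco1a4). It was below 0 in both calcium pumps, Aqp8 and Slc29a1. Over all 29 genes 10 kept their sign in each of the 26 settings and 19 did not. Trend and robust eBayes and the exact permutation test are among the 26, and they keep the estimate of the main fit. No sign could turn in them. The count of 25 moved with single mice and arrays. It was 21 without M244, 20 without F203 and 18 without both. These counts were 72.4%, 69% and 62.1% of the 29, beside 45.1%, 49% and 38.8% of named genes. The count was 19 (65.5%) without the pair of arrays that stood apart, beside 43.2% of named genes. With the arrays scaled to one spread it was 18 (62.1%), beside 51.9%. On the Cy5 arrays alone, which also lack F203, it was 15 (51.7%). There 39.2% of named genes and 40.4% of all features were above 0. All 29 genes were read on the same arrays, so their signs are not independent, and the count has no test.

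**Figure D4:**
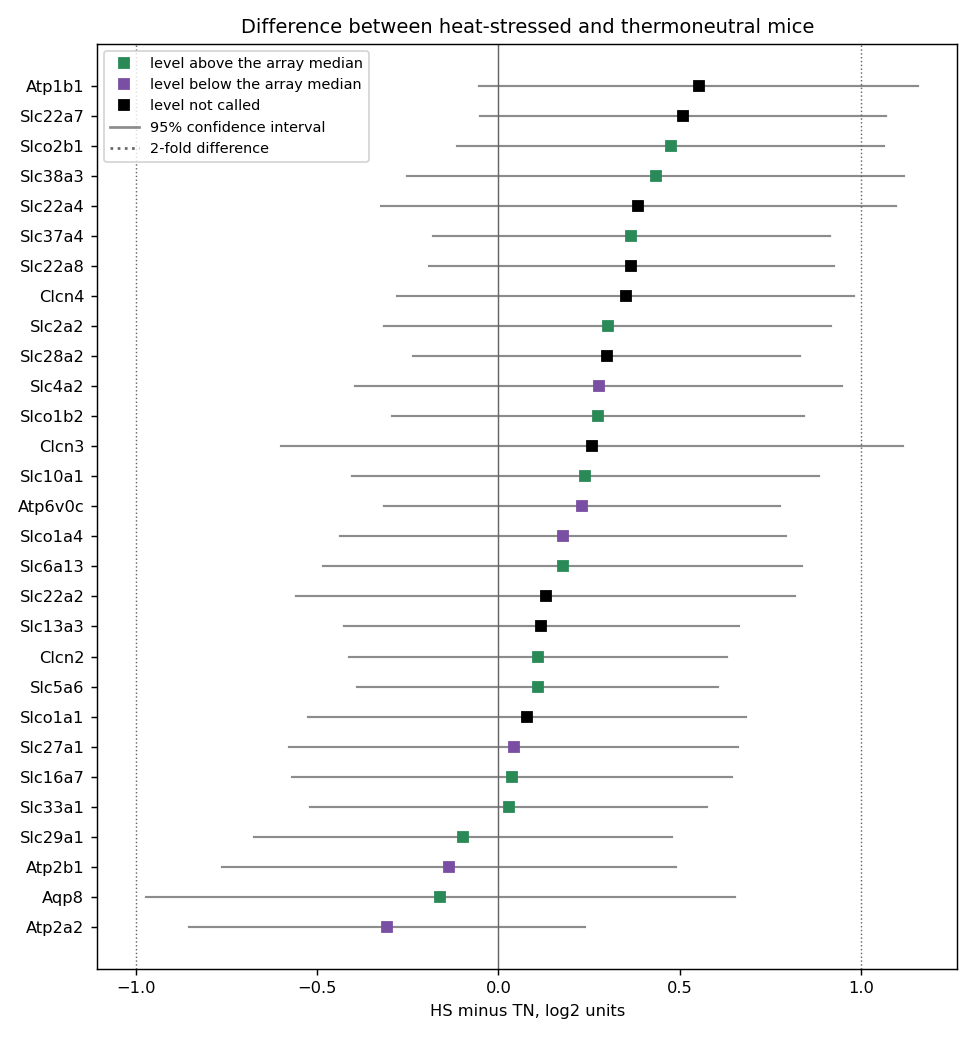
Difference of HS (n = 6) minus TN (n = 7) in log2 units for each gene on the x axis, with 95% confidence intervals. Dotted lines mark a 2-fold difference and colours the side on which the level was called. The interval of each of the 29 genes includes 0. There are 25 differences above 0, or 15 on the Cy5 arrays alone, which lack F203. Of named genes 58.9% are above 0, or 39.2% on the Cy5 arrays alone.

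The smallest p for heat among the 29 genes belonged to Atp1b1. It ran from −0.40 to 0.47 in TN (median 0.04) and from 0.07 to 1.83 in HS (median 0.39). The groups overlapped, and F203 was the highest mouse. The difference was 0.55 (standard error 0.29, unadjusted p = 0.0722, adjusted p = 0.999), with 6 of 6 HS mice above the TN mean. It was 0.31 without F203 and 0.11 on the Cy5 arrays alone, which also lack F203. Slc22a7, a carrier of organic anions, ran from −0.79 to 0.25 in TN (median −0.21) and from −0.22 to 0.83 in HS (median 0.35). Its groups overlapped between −0.22 and 0.25, with a difference of 0.51 (standard error 0.27, adjusted p = 0.999) and 5 of 6 HS mice above the TN mean. The difference of Slc22a7 lay between 0.40 and 0.62 when each mouse was left out in turn.

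Slco2b1 ran from −0.13 to 1.16 in TN (median 0.63) and from 0.30 to 1.75 in HS (median 0.96), a difference of 0.48 (standard error 0.28) with 5 of 6 HS mice above the TN mean, and between 0.29 and 0.84 in other settings. Slc22a8 ran from −1.34 to 0.14 in TN (median −0.32) and from −0.33 to 0.31 in HS (median 0.11). The groups of both genes overlapped. The difference of Slc22a8 was 0.37 (0.27), with 6 of 6 HS mice above the TN mean, 0.20 without M244, the lowest TN mouse, and 0.14 without M244 and F203. Slc37a4, the glucose 6-phosphate carrier, differed by 0.37 (0.27), or by 0.14 when the arrays were scaled to one spread. Slc38a3 differed by 0.43 (0.33), or 0.26 without M244, by 0.11 on the Cy5 arrays alone and 1.04 on the Cy3 arrays alone, and by −0.16 when scaled. The nucleoside carrier Slc28a2 differed by 0.30 (0.26), with 5 of 6 HS mice above the TN mean. It was 0.08 without the pair of arrays that stood apart and 0.46 without M256. Atp2a2 was the one gene of the 8 smallest p with a lower mean in HS, at −0.31 (0.26), with 5 of 6 HS mice below the TN mean. It was −0.20 without M256 and −0.17 under quantile normalization. All of these had an adjusted p of 0.999 by limma.

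A few mice were the lowest or the highest of their group in many genes. M244 was the lowest TN mouse in 20 of the 29 genes, and in 60.5% of named genes. M211 was the highest TN mouse in 14 of the 29, and in 43.3% of named genes. Among HS mice M256 was the lowest in 14 of the 29, and in 45.2% of named genes, and F203 the highest in 10, and in 32.5% of named genes. The mean over the 29 genes ran from −0.21 in M244 to 0.68 in M211 among TN mice and from 0.20 in M256 to 0.89 in F203 among HS mice. The groups overlapped. The mean of the 6 genes below was −1.50 in M244 and −1.28 in M256, and between −0.62 and −0.10 in the other mice. Over the 29 genes the median SD between mice was 0.40 in TN and 0.48 in HS, and over all features 0.55 and 0.53.

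**Figure D5:**
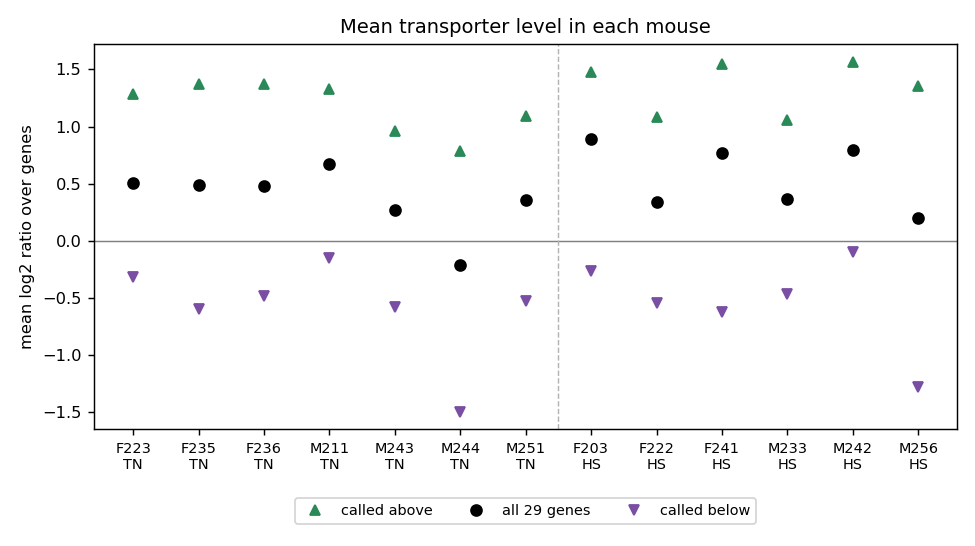
Mean level (log2 ratio of liver over reference) on the y axis over the 13 genes called above (upward triangles), all 29 genes (circles) and the 6 called below (downward triangles) in each of the 13 mice on the x axis, TN mice on the left and HS mice on the right. M244 has the lowest mean over 29 genes, −0.21, and M244 and M256 have the lowest means of the 6 genes below.

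Mice whose identifier begins with F (n = 6) were compared with those beginning with M (n = 7), with heat in the fit. The letter is used as a letter only, because F222 and also M242 are labelled female, and M233 male. None of the 29 genes passed, with 0.0539% of features called (limma). At an unadjusted p under 0.05 there was 1 of 29, the bile salt carrier Slc10a1, beside 3.77% of features. Slc10a1 averaged 1.83 ± 0.21 (SD, n = 6) in F mice and 1.17 ± 0.59 (SD, n = 7) in M mice, a difference of 0.65 (standard error 0.29, adjusted p = 0.995), or 0.28 on the Cy5 arrays alone. The M mice ran from 0.46 to 2.11 and the F mice from 1.45 to 2.08. The value of 2.11 belonged to M242, which is labelled female, and the next M mouse was M251 at 1.56. Only with M242 did the M mice span the F mice. The difference F minus M was above 0 for 24 of the 29 genes and for 54.6% of features. On the Cy5 arrays alone, which lack F203, it was above 0 for 15 of the 29, and the share of all features there was not computed. Its median was 0.18 over the 29 genes, 0.03 over all features and 0.11 over named genes. The signs of the 29 genes are not independent, and the count has no test.

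Whether the heat difference itself differed between F and M mice was tested by an interaction term. It was called for 0 of the 29 genes and 0% of features (limma). At an unadjusted p under 0.05 there were 0 of 29 and 1.19% of features. The smallest p belonged to Slco2b1, with an interaction of −1.14 (standard error 0.56, adjusted p = 0.998). Slc22a4 followed with 1.05 (0.64), which was −0.10 on the Cy5 arrays alone, and Slc38a3 with −1.02 (0.66), which was −0.19 on the Cy5 arrays alone and −0.55 without F235. The Slc22a4 interaction was 0.62 without F241.

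Of 73 other genes that work with these carriers and pumps, 15 were measured. Of these 4 were above, 5 below and 0 called for heat, beside 24.1%, 24.4% and 0% of all features. Of their heat differences 9 of 15 were above 0, beside 58.9% of named genes and 48.3% of all features. Above were Gjb1, the gap junction protein connexin 32 (1.80), the copper oxidase ceruloplasmin Cp (1.69), the copper chaperone Ccs (0.85) and the pump regulator Fxyd1 (0.44). Below were basigin (Bsg, −1.45), which accompanies monocarboxylate carriers to the membrane, the ubiquitin ligase Nedd4 (−1.43), metallothionein Mt1 (−1.35), the mitochondrial porin Vdac2 (−0.92) and the chaperone calnexin (Canx, −0.59). The scaffold Pdzk1, which binds several organic anion carriers, stood at 0.07 and the bile acid receptor Nr1h4 at 0.24, neither called. For heat 1 of the 15 had an unadjusted p under 0.05, beside 2.42% of all features. It was Mt1, with a difference of 1.17 (standard error 0.37, adjusted p = 0.999 by limma). The list was chosen with earlier results of these data known.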

How the data were processed

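Liver RNA of 13 mice was measured on 34 two-colour arrays; the deposited values, taken here as log2 ratios of Cy5 over Cy3, were made by the authors from both channels of each spot. How the authors corrected background, normalized and filtered spots, and which log base they used, is not given in the sources used here. Were the base natural, every size would be on that scale. No intensities were used, so signal over background is unknown, and the number of mice and arrays limits the precision. Direction was checked by the hepatocyte markers: 16 to 20 of 20 lay above the array median on Cy5 arrays and 1 to 4 on Cy3 arrays. Of the 1920 spots, 1083 had 1 gene symbol, 7 several and 830 were unlisted in the platform annotation.

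Each array was centred on its median. A least-squares fit per gene of 13 mouse terms and 1 dye term gave 1 value per mouse, with arrays of a mouse as technical replicates, and spots of a gene were averaged. limma 3.58.1 in R 4.3.3 (lmFit, eBayes, two-sided) was fitted on all 1856 features, with Benjamini-Hochberg adjustment and a threshold of 0.05. The level was the mean of both groups against 0, which leaves out the spread of the reference, a single RNA. The procedure was tested on simulated data. The arrays of a mouse shared its value there, so the step that combines arrays met no array noise.

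All 29 members are named with their level, with values per mouse for the 6 highest, the 4 lowest and the highest of each role. For heat the 8 members of smallest p are named, and for the letter and the interaction those at an unadjusted p under 0.05 or else the 3 of smallest p. Members and lists were chosen with earlier results of these data known. Alternatives were other centrings, scaling, quantile normalization, a plain mean, either dye alone, array weights, leaving out each mouse or the arrays that stood apart, spots on their own, trend and robust eBayes, the letter as a covariate and an exact permutation test. Leaving out F203 and M244 together was chosen after seeing the data.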

Additional observations from a re-analysis of the deposited data

Results flagged for a closer look

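In 11 of 58 groups (29 genes in TN and in HS) the lowest or highest mouse stood further from the next than Dixon's 95% criterion allows, where chance gives about 1 in 20, or 2.9 of 58. The mice share arrays over genes, so these cases are not independent. The share of all features that meet the criterion was not computed, so the count shows nothing particular to these genes.

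M244 (TN) was the low mouse in 8 of the 11, and the lowest TN mouse in 60.5% of named genes and 45.7% of all features. It stood at −0.30 for Slc33a1 (next TN mouse 0.25), −0.74 for Slc13a3 (−0.04), −1.34 for Slc22a8 (−0.45) and −1.84 for Clcn4 (−0.64). It stood at −1.65 for Slc22a2 (−0.41), −1.94 for Slc4a2 (−0.55), −1.56 for Atp2a2 (−0.84) and −2.15 for Slc27a1 (−1.06). One of its 2 arrays was the Cy5 array with the wide spread. The Cy5 and Cy3 arrays gave −0.71 and 0.10 for Slc33a1, −0.58 and −0.90 for Slc13a3, and −0.95 and −1.74 for Slc22a8. They gave −1.87 and −1.82 for Clcn4, −1.94 and −1.37 for Slc22a2, and −0.61 and −3.28 for Slc4a2. For Atp2a2 the values were −2.25 and −0.87, and for Slc27a1 −2.99 and −1.30. These single values include any dye effect, and the cause was not tested.

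F203 (HS) was the high mouse for Aqp8 at 4.22 (next HS mouse 2.12) and for Clcn3 at 2.64 (0.15), and it had 1 array. F223 (TN) was the high mouse for Aqp8 at 3.49 (next 2.39).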

How the results depend on the processing

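Over 26 other settings 0 of the 29 genes was called for heat, with a lowest adjusted p of 0.782 by limma (Cy3 arrays alone), and the genes called above numbered 12 to 15 over 24. The genes called below were 6, 2 with no centring, 8 with centring on named spots, scaling, quantile normalization or the Cy3 arrays alone, and 3 to 6 when each mouse was left out, with 3 without F222 and 3 without M256. Genes with a heat difference above 0 and with a letter difference above 0 were 15 each on the Cy5 arrays alone, and 20 to 26 and 22 to 26 with each mouse left out. Of named genes 39.2% had a heat difference above 0 on the Cy5 arrays alone, and 45.1% to 67.7% with each mouse left out. Features called for the interaction rose from 0 to 1 after scaling and with array weights, and were 0 to 1 with each mouse left out (1 without M244 and 1 without F222). Features called for the letter fell from 1 to 0 on the Cy5 arrays alone and in the exact permutation test (smallest p possible 0.00143), and were 1 to 2 with each mouse left out (2 without F222).

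The heat difference turned sign in at least 1 of 26 settings for 19 of the 29 genes, among them Slc38a3, named for its small p, to −0.158 after scaling. The levels that turned, with the cause not tested, were on the Cy5 arrays alone Atp1b1 −0.426, Clcn3 −0.772, Slc22a8 0.121, Slco1a4 0.007, Atp6v0c 0.010 and Slc4a2 0.549 (and the Slc22a4 interaction −0.101). On the Cy3 arrays alone they were Slc22a4 −0.135, Slc13a3 −0.420, Slc28a2 −0.335 and Slc22a7 −0.247. Centring on named spots gave Slc22a7 −0.003 and Clcn3 −0.007, quantile normalization Clcn3 −0.007 and the plain mean Clcn3 −0.019. Without the pair of arrays that stood apart Slc28a2 was −0.003, Slc22a7 −0.011 and Clcn3 −0.041, and without F203 and M244 together Clcn3 was −0.157. With each mouse left out the level ran from −0.202 to 0.148 for Clcn3, from −0.003 to 0.099 for Slc22a7 and from −0.004 to 0.138 for Slc28a2. No paired analysis was possible because the groups share no replicate numbers.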
